A study of Mus musculus with 12 samples.

Results

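The mitochondrial ribosomal protein genes were taken as the genes whose symbol starts with Mrpl or Mrps followed by a digit, among array probes annotated with a single gene symbol. There were 132 such probes for 76 of the 19057 named genes on the array, and each gene was followed through its probe with the highest mean. The genes were matched by name alone, while the probe of each was picked by its measured mean. The family itself was chosen with earlier results of these data known. Of the 76 genes, 72 (94.7%) were detected on at least 4 of the 12 arrays and were tested, against 9108 (47.8%) of all named genes, and 71 were detected on every array. Mrpl19, Mrpl32, Mrpl39 and Mrps14 were detected on 0 arrays and were not tested. The label held against the annotation, except that Mrps30 and Mrps18a, named as small-subunit genes, are known to encode proteins of the large subunit and were counted there.

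The U17_KD cells were a stable clone of NIH-3T3, a mouse fibroblast line that became immortal in culture, carrying ShSnhg3, which the labels call a knockdown of U17. U17 is a small nucleolar RNA of the H/ACA box class, made from introns of the host transcript Snhg3. The U17_OE cells were a stable clone with the construct pMDβglobinU17b, labelled as overexpressing U17, and the WT cells were NIH-3T3 labelled with no construct. All 3 groups were kept for 24 hours in LPDS medium, which holds serum without lipoproteins, and each had 4 arrays labelled as biological replicates. Since each construct is represented by 1 clone, an effect of the U17 level and a property of that clone cannot be told apart. No probe named for Snhg3 or U17 was found, so the level of U17 was not checked.

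Mitochondria translate the few proteins encoded by their own DNA, all of them parts of the respiratory chain and ATP synthase, on a ribosome of bacterial descent. Its RNAs come from mitochondrial DNA, while all of its proteins are encoded in the nucleus, made in the cytosol and imported. Some of these proteins have a counterpart in bacterial ribosomes, and others were added in mitochondria. Promoters of nuclear genes for mitochondrial proteins are known for sites of the factor NRF1 and of the ETS factor GABP, also called NRF2.

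On the normalized values, probes at or above the detection level, 1 cutoff for all arrays, numbered 15820 to 15832 per array. On each array 37.7% of these values lay below 0, so the near-equal counts do not measure array quality. Before normalization the WT arrays had 15140 to 16182 probes with a detection p-value under 0.05, and those of the clone arrays were not used. The correlation between arrays was 0.980 to 0.995 within groups and 0.966 to 0.989 between them. U17_OE replicate 3 stood apart, where the SD of the log2 differences from its group mates was 0.393, while the other arrays had 0.182 to 0.273, so results are also given without it. Fibroblast markers were present (8 of 9 detected on all arrays) and the 4 adipocyte markers were detected on 0 arrays, as were Epcam, Krt18, Adgre1, Ptprc, Cdh5, Pecam1 and Myod1. Other epithelial, leukocyte, endothelial and muscle markers were detected on some arrays. Krt8 was detected on 10, Cdh1 and Csf1r on 9, Des on 7, and Kdr and Myog on 6. Their mean log2 intensities were 5.60 to 5.76. The summed fibroblast marker intensity was 57412.6 to 61143.5 in U17_KD, 43604.9 to 53068.2 in U17_OE and 47501.8 to 55033.1 in WT. Of these 9 markers 7 were higher in U17_KD than in WT (77.8%, against 20.0% of all genes) and 8 were higher in U17_KD than in U17_OE (88.9%, against 16.5%). In U17_OE against WT 0 markers passed the adjusted test of limma, where 6.48% of all genes were higher and 6.37% lower. At an unadjusted p under 0.05, 3 markers were higher and 1 lower there, and the share of all genes at that threshold was not counted. The part of these marker differences in the results below was not tested.

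In the U17_KD clone 19 of the 72 tested genes were lower than in WT and 5 were higher. A gene was called where the adjusted p of limma over all tested probes was under 0.05, and by this rule 20.4% of all genes were lower and 20.0% were higher in U17_KD. The share of mitochondrial ribosomal protein genes was 26.4% for lower and 6.94% for higher, so the lower share stood near the share of all genes and the higher share was below it. In either direction 24 members (33.3%) were called, against 40.5% of all genes. The median log2 fold change of the members was -0.09, between -0.79 and 0.56, against a median of -0.02 over all genes. Called lower by at least 1.5-fold were 4 members (5.56%), against 7.97% of all genes. Since RNA came from whole cultures, fewer cells with a transcript and less of it per cell cannot be told apart.

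The median log2 intensity of the tested members on each array lay between 10.87 and 11.03 in U17_KD, between 11.03 and 11.26 in U17_OE and between 11.09 and 11.19 in WT. All U17_KD arrays were below all WT arrays, and the highest of them touched the range of U17_OE. The plot of log2 fold changes, coloured by subunit, shows a minority of genes with clear falls beside many near 0.

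**Figure D1:**
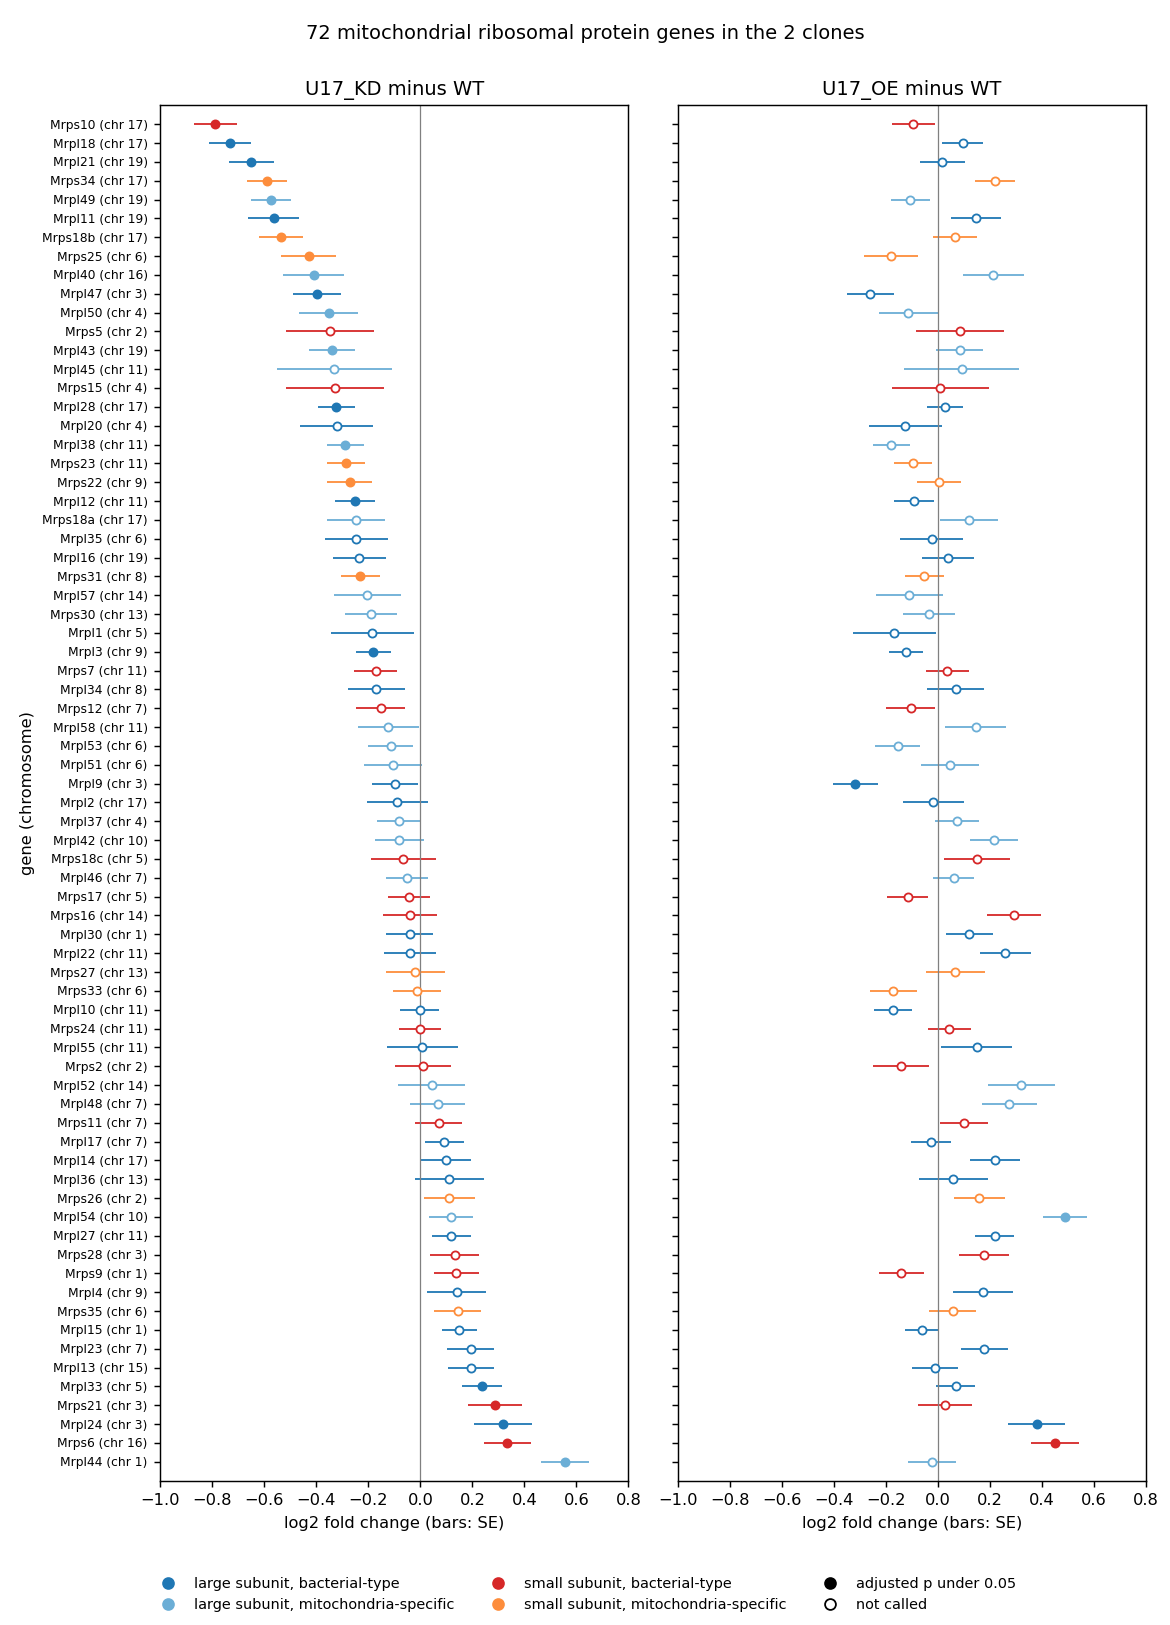
Log2 fold change of each tested mitochondrial ribosomal protein gene (points, coloured by subunit and class), for U17_KD minus WT and U17_OE minus WT, with genes in order of the U17_KD value. Filled points passed the adjusted p of 0.05. In U17_KD minus WT the values run from -0.79 to 0.56 and 19 of the 24 called genes lie below 0.

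Promoter sequences show what the affected genes carry near their start. For 67 of the 76 genes RefSeq (build GRCm38.p6) gave a window of 300 bases, 250 before and 50 after the annotated start, which was searched on both strands for 6 motifs. The ETS motif CCGGAAG was found in 37.3% of these windows, against 19.0% of the windows of 7387 other tested genes and 9.12% of all 27025. The YY1 motif AAGATGGCG was found in 11.9%, against 3.56% and 1.49%, and the NRF1 motif CGCATGCG in 10.4%, against 4.17% and 1.91%. The GC box GGGCGG was found in 49.3%, against 66.1% and 35.9%, the CCAAT box in 37.3%, against 39.1% and 37.9%, and the E-box CACGTG in 7.46%, against 10.7% and 7.24%. The ETS match did not go with the direction of change, since it was found in 7 of 17 genes lower in U17_KD than in WT (41.2%), 2 of 5 higher (40.0%) and 16 of 42 not called (38.1%).

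The stretches below end at the annotated start or, for Mrps6, 14 bases before it, and are given 5′ to 3′ on the gene's strand, with motif matches in capitals. They belong to the genes with the largest called changes in each clone that had an entry, followed by Mrpl3 and Mrps22, chosen after their values were seen because they were lower in U17_KD and hold an ETS match.
Mrps10, chr17:47369047-47369196 on the plus strand, with a CCAAT box in reverse: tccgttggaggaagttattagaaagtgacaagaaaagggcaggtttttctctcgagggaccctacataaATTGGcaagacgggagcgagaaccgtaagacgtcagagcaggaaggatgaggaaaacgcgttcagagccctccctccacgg
Mrpl18, chr17:12916092-12916241 on the minus strand, with a GC box and a CCAAT box, both in reverse: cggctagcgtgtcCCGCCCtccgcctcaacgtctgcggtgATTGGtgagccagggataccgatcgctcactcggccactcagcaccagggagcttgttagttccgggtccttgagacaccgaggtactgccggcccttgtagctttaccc
Mrpl21, chr19:3283011-3283041 on the plus strand, without a match and cut where the neighbouring gene Ighmbp2 begins: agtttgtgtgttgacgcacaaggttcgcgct
Mrps6, chr16:92058186-92058321 on the plus strand, with 4 GC boxes of which the leading pair overlap each other, and cut at the gene Slc5a3: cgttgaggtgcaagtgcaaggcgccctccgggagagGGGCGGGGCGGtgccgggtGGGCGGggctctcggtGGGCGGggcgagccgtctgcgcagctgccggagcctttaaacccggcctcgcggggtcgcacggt
Mrpl24, chr3:87919394-87919543 on the plus strand, without a match: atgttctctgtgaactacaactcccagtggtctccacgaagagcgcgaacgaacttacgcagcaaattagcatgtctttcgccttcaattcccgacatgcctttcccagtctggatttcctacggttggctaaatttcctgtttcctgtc
Mrpl9, chr3:94443186-94443335 on the plus strand, with an NRF1 match: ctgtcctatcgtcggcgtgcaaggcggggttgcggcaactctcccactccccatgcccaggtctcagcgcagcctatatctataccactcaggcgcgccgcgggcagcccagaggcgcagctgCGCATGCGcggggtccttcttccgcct
Mrpl3, chr9:105053118-105053267 on the plus strand, with a CCAAT box in reverse and an ETS match: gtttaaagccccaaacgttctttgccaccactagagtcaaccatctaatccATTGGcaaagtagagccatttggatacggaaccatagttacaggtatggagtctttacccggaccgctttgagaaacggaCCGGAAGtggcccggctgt
Mrps22, chr9:98601680-98601829 on the minus strand, with a GC box and an ETS match: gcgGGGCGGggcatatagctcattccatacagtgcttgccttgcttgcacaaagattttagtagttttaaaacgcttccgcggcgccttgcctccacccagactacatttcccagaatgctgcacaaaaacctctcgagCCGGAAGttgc
A match is a run of letters and no evidence of binding. Within 150 bases before the start, another annotated gene lay in 26 of the 67 windows (38.8%), against 23.8% of other tested genes. Strand and shared promoter activity were not examined.

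Among the small-subunit genes, those for proteins with a bacterial counterpart had 1 of 15 tested lower (6.67%) and 2 higher (13.3%) in U17_KD than in WT, and those for proteins added in mitochondria had 6 of 10 lower (60.0%), beside 20.4% of all genes lower and 20.0% higher. The difference between these classes was not tested. Their median log2 fold changes were -0.04 and -0.25. Mrps10, the lower gene of the class with a bacterial counterpart, and Mrps34 and Mrps18b of the other class lie on chromosome 17, described below. Mrps10, whose protein has a bacterial counterpart in the head of the small subunit, had log2 intensities of 11.09, 11.00, 10.84 and 10.91 in U17_KD, against 11.71, 11.71, 11.75 and 11.83 in WT. All U17_KD arrays were below all WT arrays, and the log2 fold change of -0.79 ± 0.08 (SE, n = 4 arrays a group) was the largest of all members (limma, adjusted p = 3.82e-07). Of its other 3 probes that passed the detection filter, a pair gave -0.79 and -0.64, both lower, while the remaining probe, detected on 2, 1 and 2 arrays of U17_KD, U17_OE and WT, gave 0.06.

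Mrps34, a small-subunit protein added in mitochondria, had 11.92, 12.01, 11.90 and 11.99 in U17_KD, against 12.58, 12.43, 12.49 and 12.69 in WT. Mrps18b, one of 3 mammalian relatives of the bacterial S18 protein, was counted with those added in mitochondria. It had 11.69, 11.68, 11.61 and 11.63 in U17_KD, against 12.25, 12.19, 12.17 and 12.15 in WT. Neither gene's groups overlapped, and the falls were -0.59 ± 0.08 (adjusted p = 7.6e-06) and -0.54 ± 0.08 (adjusted p = 5.36e-05). The other probes of Mrps18b gave -0.51 and -0.47, both called lower. Mrps25, also a mitochondrial addition, had a log2 fold change of -0.43 ± 0.10 (adjusted p = 0.00319).

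The other probe results for small-subunit genes varied. Mrps23 and Mrps31, mitochondrial additions with log2 fold changes of -0.29 and -0.23, were called lower through their brightest probe (adjusted p = 0.00433 and 0.0213) but not through others, at -0.25 for Mrps23 and at -0.22 and -0.16 for Mrps31. For Mrps25 the other probes gave -0.28, not called, and -0.38, called lower. In the opposite way, Mrps7 and Mrps12, which have bacterial counterparts, were not called at -0.17 and -0.15 through the brightest probe, but their other probes were lower at -0.46 (adjusted p = 0.00044) and -0.30 (adjusted p = 0.0307). Mrps5 had -0.35 and 0.15 through its pair of probes, neither called.

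The small-subunit genes higher in U17_KD were Mrps6 and Mrps21, which both have bacterial counterparts. Mrps6 lay between 11.94 and 12.11 on the 4 arrays of U17_KD, against 11.74, 11.76, 11.69 and 11.57 in WT, without overlap, and its log2 fold change was 0.33 ± 0.09 (adjusted p = 0.00736). Mrps21 had 11.26, 11.51, 11.15 and 11.44 in U17_KD, against 11.09, 10.99, 10.97 and 11.16 in WT. These groups overlapped narrowly, and the change of 0.29 ± 0.10 (adjusted p = 0.0343) did not pass in 8 of 27 alternatives, with adjusted p up to 0.123.

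Among the large-subunit genes, 7 of 28 with a bacterial counterpart were lower in U17_KD than in WT (25%) and 2 were higher, and of those added in mitochondria 5 of 19 were lower (26.3%) and 1 was higher. The lower shares were near the 20.4% of all genes, and the higher shares, 7.14% and 5.26%, were below the 20.0% of all genes. Their median log2 fold changes were -0.07 and -0.12. Mrpl18, counterpart of a bacterial protein bound to the small ribosomal RNA of the large subunit, had 10.20, 10.28, 10.13 and 10.20 in U17_KD, against 10.98, 10.89, 10.89 and 10.98 in WT. Its groups lay well apart, and its log2 fold change of -0.73 ± 0.08 (adjusted p = 7.89e-07) was the largest of the large subunit. Mrpl21, also with a bacterial counterpart, had 11.35, 11.46, 11.25 and 11.39 in U17_KD, against 12.07, 11.87, 12.08 and 12.02 in WT. It fell by 0.65 ± 0.09 on the log2 scale (adjusted p = 7.69e-06) without overlap.

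Mrpl11, counterpart of the protein at the base of the bacterial ribosome's stalk, where translation factors bind, had 9.90, 10.26, 9.99 and 10.24 in U17_KD, against 10.70, 10.65, 10.64 and 10.66 in WT. The U17_KD arrays spread more widely than the WT arrays but did not reach them, and the log2 fold change was -0.56 ± 0.10 (adjusted p = 0.000148). Mrpl49, added in mitochondria, had 11.15, 11.04, 11.20 and 11.03 in U17_KD, against 11.75, 11.58, 11.66 and 11.72 in WT. Its 4 tested probes gave -0.57, -0.66, -0.69 and -0.70, all called lower. Mrpl43, another mitochondrial addition, gave -0.34 and -0.30 through its probes, both called lower.

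Smaller falls were those of Mrpl40 (-0.41 ± 0.12, adjusted p = 0.00961) and Mrpl50 (-0.35 ± 0.11, adjusted p = 0.0209), added in mitochondria, and of Mrpl47 (-0.40 ± 0.09, adjusted p = 0.0021) and Mrpl28 (-0.32 ± 0.07, adjusted p = 0.00134), which have bacterial counterparts. Mrpl50 was not called without U17_KD replicate 3, WT replicate 1 or WT replicate 3, with adjusted p up to 0.0667. Mrpl38 and Mrpl3 were called lower through 1 probe (-0.29 and -0.18) and not through the other (-0.22 and -0.08).

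The gene with the largest rise in U17_KD was Mrpl44, a mitochondrial addition related to the RNA-cutting enzyme RNase III. It had 10.47, 10.63, 10.57 and 10.39 in U17_KD, against 10.12, 9.92, 9.85 and 9.95 in WT. No U17_KD array was as low as a WT array, and the log2 fold change was 0.56 ± 0.09 (adjusted p = 0.000109). Mrpl24 and Mrpl33, with bacterial counterparts, had changes of 0.32 ± 0.11 (adjusted p = 0.0307) and 0.24 ± 0.08 (adjusted p = 0.0187), with overlapping groups, and the other probe of Mrpl33 gave 0.25, also called higher. Mrpl33 was not called in 5 of 27 alternatives, with adjusted p up to 0.166, and Mrpl24 in 7, with adjusted p up to 0.101. The count of 5 higher genes fell to 2 without U17_KD replicate 2, U17_KD replicate 4 or WT replicate 2, and to 3 without WT replicate 1, with Mrps21 and Mrpl24 no longer called in each case and Mrpl33 in those that left 2, while Mrps6 and Mrpl44 were called under all 27 alternatives. Of all genes 17.5%, 17.6%, 18.3% and 18.3% were higher in these settings, in that order. Without U17_OE replicate 3, which enters through the shared spread, 25 genes were lower and 5 higher. In that setting 24.3% of all genes were lower and 23.4% higher.

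**Figure D2:**
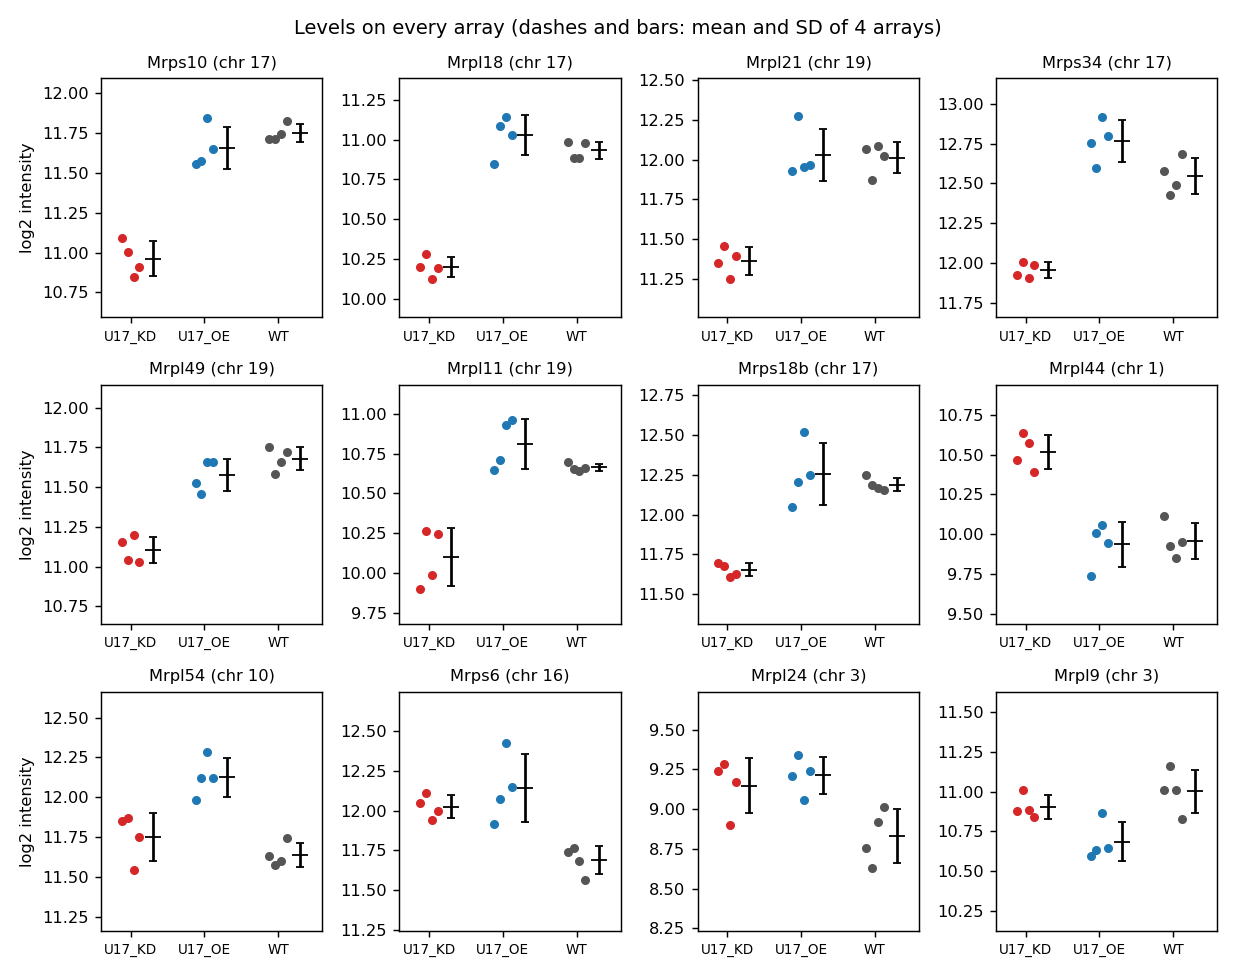
Log2 intensity on each array (points) of members called in U17_KD minus WT or U17_OE minus WT, with the group mean as a line, for U17_KD, U17_OE and WT from left to right in each panel. For Mrps10 the U17_KD arrays sit between 10.84 and 11.09, below the WT arrays at 11.71 to 11.83, and for Mrps6 both clones lie above WT.

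In the U17_OE clone few of these genes differed from WT. By the same rule 3 of 72 were higher (4.17%, against 6.48% of all genes) and 1 was lower (1.39%, against 6.37%), together 5.56% of members, against 12.8% of all genes. The median log2 fold change was 0.05, between -0.32 and 0.49. Of the members 44 lay above 0 and 28 below, and the median over all genes was -0.01. This comparison uses the same WT arrays as that of U17_KD, so the values of the clones against WT are not independent of each other.

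Mrpl54, a large-subunit protein added in mitochondria, had 11.98, 12.12, 12.28 and 12.12 in U17_OE, against 11.63, 11.57, 11.60 and 11.74 in WT. All U17_OE arrays were above all WT arrays, and it rose by 0.49 ± 0.09 (adjusted p = 0.000828). In U17_KD its change from WT was 0.12 ± 0.09 (adjusted p = 0.307). Mrps6 had 11.92, 12.07, 12.42 and 12.15 in U17_OE, above the 11.57 to 11.76 of WT, and rose by 0.45 ± 0.09 (adjusted p = 0.00295). It was thus higher than WT in both clones.

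Mrpl24 had 9.21, 9.34, 9.06 and 9.24 in U17_OE, against 8.76, 8.63, 8.92 and 9.01 in WT, without overlap, and its rise was 0.38 ± 0.11 (adjusted p = 0.0321). Mrpl9, whose bacterial counterpart protrudes from the side of the large subunit, was the gene that fell. It had 10.59, 10.63, 10.87 and 10.65 in U17_OE, against 11.01, 11.16, 11.01 and 10.83 in WT, with U17_OE replicate 3 above WT replicate 4, and a log2 fold change of -0.32 ± 0.09 (adjusted p = 0.0228). Its other probe gave -0.30 (adjusted p = 0.0887). Mrpl9 was not called without U17_OE replicate 1, 2 or 4 or WT replicate 1, 2 or 3, nor Mrpl24 without U17_OE replicate 1, 2 or 4 or WT replicate 1 or 2 (adjusted p up to 0.103). The counts of higher and lower genes were 5 and 2 without U17_OE replicate 3, 7 higher without U17_OE replicate 1 and 5 higher without WT replicate 4. Of all genes 9.94% were higher and 9.69% lower without U17_OE replicate 3. The higher share of all genes was 6.84% without U17_OE replicate 1 and 5.20% without WT replicate 4.

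Set directly against each other, the clones differed in 20 of the 72 genes (27.8%, against 33.1% of all genes). Of these 17 were lower in U17_KD than in U17_OE (23.6%, against 16.5% of all genes) and 3 were higher (4.17%, against 16.5%). The median log2 fold change was -0.15, against -0.01 over all genes, with 56 members below 0 and 16 above. Called lower in U17_KD by at least 1.5-fold were 7 members (9.72%), against 5.88% of all genes. The falls were led by Mrpl18 (-0.83 ± 0.08, adjusted p = 2.44e-07), Mrps34 (-0.81 ± 0.08, adjusted p = 2.13e-07) and Mrpl11 (-0.71 ± 0.10, adjusted p = 1.82e-05), followed by Mrps10 (-0.69), Mrpl21 (-0.67), Mrpl40 (-0.62), Mrps18b (-0.60) and Mrpl49 (-0.47).

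Mrps34 had 11.92, 12.01, 11.90 and 11.99 in U17_KD, against 12.75, 12.60, 12.92 and 12.80 in U17_OE, with WT between them at 12.43 to 12.69. The U17_OE and WT arrays overlapped, and their difference did not pass the test (0.22 ± 0.08, adjusted p = 0.0757). Mrpl40 had 10.84, 10.72, 10.70 and 10.82 in U17_KD, against 11.09, 11.26, 11.84 and 11.39 in U17_OE, where replicate 3 was the highest. Mrps18a, a large-subunit relative of bacterial S18, had 10.98, 11.02, 10.98 and 10.98 in U17_KD, against 11.03, 11.37, 11.77 and 11.27 in U17_OE, and a log2 fold change of -0.37 ± 0.11 (adjusted p = 0.0166). Mrpl43 (-0.42), Mrpl54 (-0.37) and Mrpl28 (-0.35) were lower as well.

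The genes higher in U17_KD than in U17_OE were Mrpl44 (0.58 ± 0.09, adjusted p = 0.000105), Mrps9 (0.28 ± 0.09, adjusted p = 0.02) and Mrpl15 (0.21 ± 0.07, adjusted p = 0.0228). Mrps9 and Mrpl15 have bacterial counterparts. Mrps9 had 11.53, 11.50, 11.46 and 11.57 in U17_KD, against 11.38, 11.22, 11.09 and 11.27 in U17_OE. Its groups did not overlap. The 5 other probes of Mrpl15, at -0.07 to 0.44, did not pass the test. Without U17_KD replicate 1 or 4 only 1 gene was higher, Mrps9 and Mrpl15 being lost, and without U17_KD replicate 3 or U17_OE replicate 3 the count was 6. Of all genes 13.9%, 14.2%, 14.2% and 18.7% were higher in these settings, in that order. Without U17_OE replicate 3, 21 genes were lower, as were 19.3% of all genes.

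Of the 19 genes lower in U17_KD than in WT, 9 lay on chromosomes 17 and 19. Chromosomes are described here where they hold tested members and the median of their other genes differed from WT by at least 0.15 on the log2 scale, a rule chosen after the values were seen. For falls in U17_KD these were 17 and 19. Of the 13 tested members on chromosomes 17 and 19, 9 were lower in U17_KD (69.2%) and 0 were higher by limma (11 and 0 at an unadjusted p under 0.05), with a median log2 fold change of -0.54. The 808 other tested genes of these chromosomes had a median of -0.30, with 46.8% lower and 7.30% higher by the adjusted p. Their shares at an unadjusted p were not counted in any comparison. On the remaining chromosomes 10 of 59 members were lower (16.9%), against 17.8% of other genes there. There 5 members were higher, against 21.4% of other genes, and the members' median was -0.04. The 7 largest falls, from Mrps10 to Mrps18b, all belonged to chromosomes 17 and 19.

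On chromosome 17 the lower genes were Mrps10, Mrpl18, Mrps34, Mrps18b and Mrpl28, and on chromosome 19 Mrpl21, Mrpl49, Mrpl11 and Mrpl43. The 4 others there, named after their values were seen, were Mrpl14 (0.10), Mrpl2 (-0.09), Mrps18a (-0.25) and Mrpl16 (-0.23), none of them called in U17_KD against WT. The shift of other genes was seen on every U17_KD array. Relative to the WT mean, the chromosome 17 median was -0.31 to -0.28 in U17_KD, -0.0004 to 0.040 in U17_OE and -0.0185 to 0.0162 in WT. For chromosome 19 it was -0.30 to -0.26 in U17_KD and -0.011 to 0.0128 in WT. In U17_OE 0 of the 13 members passed against WT by limma (2 higher and 0 lower at an unadjusted p under 0.05), at a median of 0.07, and 11 of the 13 were lower in U17_KD than in U17_OE (84.6%, against 47.3% of the other genes there). Elsewhere 6 of 59 were (10.2%, against 13.5% of other genes elsewhere).

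**Figure D3:**
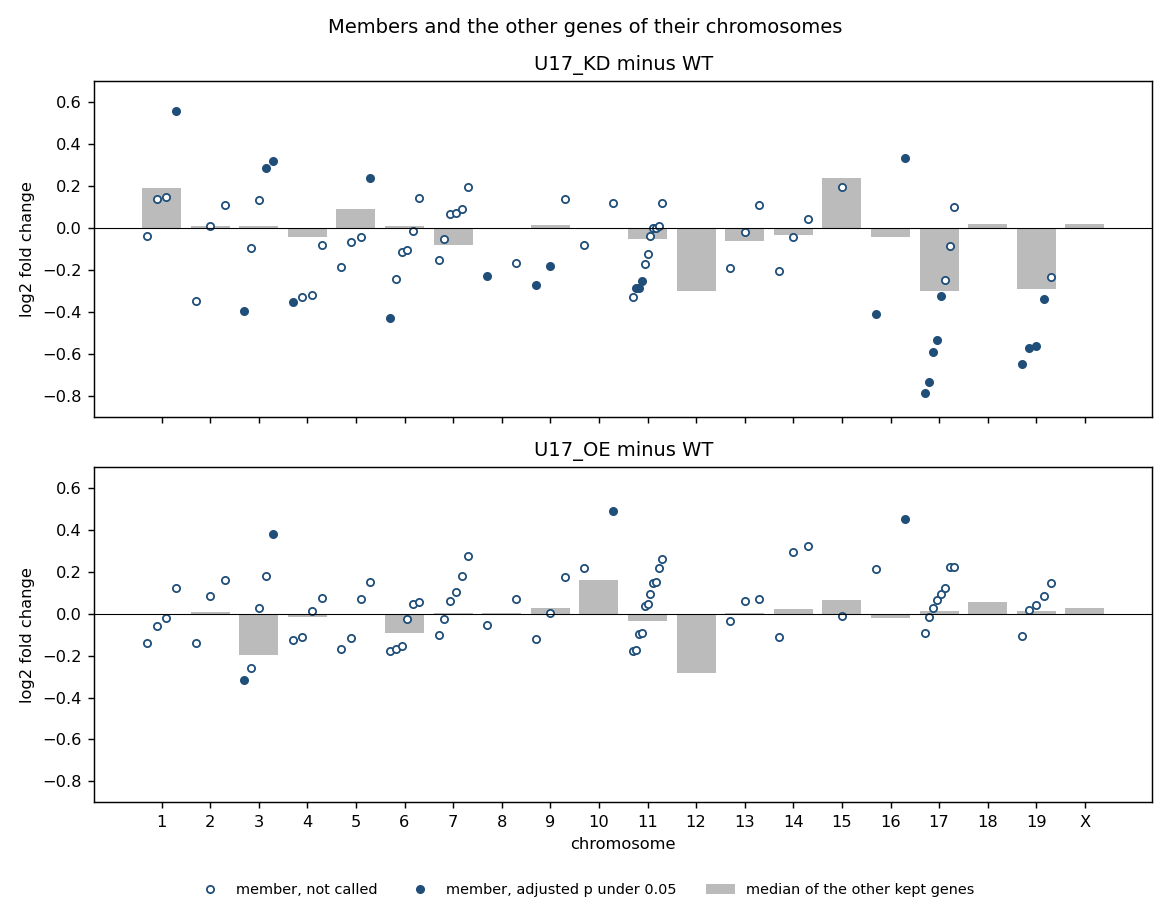
Median log2 fold change of other tested genes (bars) and log2 fold change of each mitochondrial ribosomal protein gene (points) by chromosome, for U17_KD minus WT and U17_OE minus WT. In U17_KD the bars of chromosome 12, which holds no tested member, and of 17 and 19 lie near -0.30 and 12 of the 13 members on chromosomes 17 and 19 lie below 0.

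Along chromosome 17 the running median of 41 genes of U17_KD against WT stayed below 0 at all 479 tested genes, between -0.64 and -0.07, and along chromosome 19 at all 342, between -0.41 and -0.15. A low stretch of chromosome 17 held Mrps34, whose 20 nearest tested genes outside the family had a median of -0.61, next to its own -0.59. For Mrps18b the neighbours had -0.44 beside its -0.54, for Mrpl28 -0.37 beside -0.32, and for Mrpl18 -0.47 beside -0.73. Mrps10 differed most from its neighbours, at -0.79 beside -0.19, and Mrpl21, Mrpl49 and Mrpl11 lay at -0.65, -0.57 and -0.56 beside -0.26, -0.26 and -0.27.

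**Figure D4:**
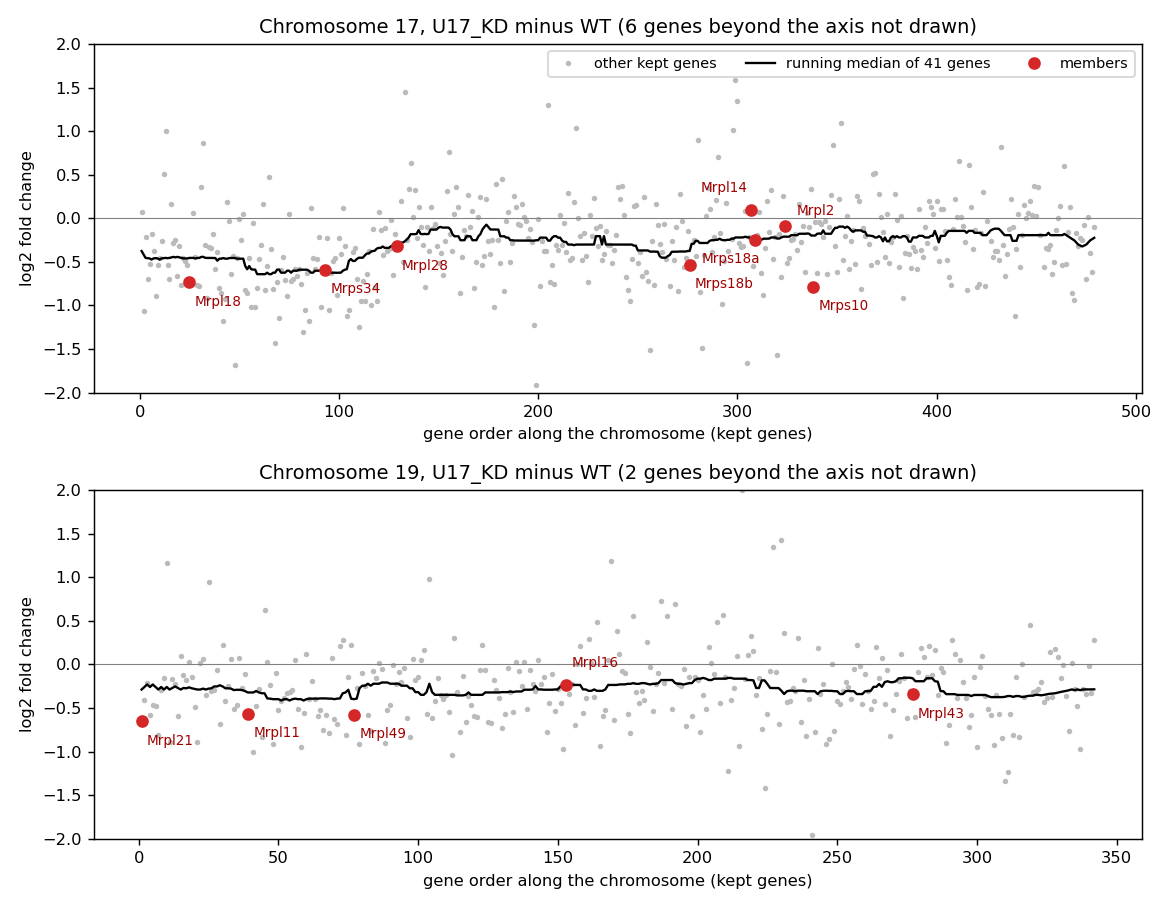
Log2 fold change of U17_KD minus WT against gene order on chromosomes 17 and 19, for mitochondrial ribosomal protein genes (labelled points), other tested genes (small points) and the running median of 41 genes (line). The line stays below 0 on both chromosomes, between -0.64 and -0.07 on 17 and between -0.41 and -0.15 on 19.

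Over all 72 members the log2 fold change of U17_KD against WT and the median of the 20 nearest other genes had a Pearson r of 0.524 and a Spearman rho of 0.451, and over the 59 members off chromosomes 17 and 19 these were 0.221 and 0.229. For U17_OE against WT they were 0.282 and 0.293, and for U17_KD against U17_OE 0.680 and 0.568. Off chromosomes 17 and 19 they were 0.331 and 0.380 for U17_OE against WT and 0.412 and 0.372 for U17_KD against U17_OE. These describe genes that share arrays and, in part, neighbours, and are given without a p.

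When each array was centred per chromosome on the other genes, an alternative added after seeing the data, 18 members were lower in U17_KD than in WT, 17 of them among the 19 lower without centring, and 5 were higher, 3 of them shared. With this centring 1640 of all 9108 genes were lower and 1798 higher. Mrps10 stood at -0.48, Mrpl18 at -0.43, Mrpl21 at -0.36, Mrps34 at -0.29, Mrpl49 at -0.28, Mrpl11 at -0.27 and Mrps18b at -0.23, all still called lower, and Mrpl44 at 0.34, still called higher. Mrpl43 at -0.05 (adjusted p = 0.724) and Mrpl28 at -0.02 (adjusted p = 0.861) were no longer called. Mrpl33 (0.14, adjusted p = 0.166) and Mrps21 (0.26, adjusted p = 0.0611) were no longer called higher. Between the clones 13 members were lower after centring, 9 of them among the 17 lower without it, while 1227 of all 9108 genes were lower. No longer called there were Mrpl49 (-0.16, adjusted p = 0.13), Mrpl43 (-0.12, adjusted p = 0.363), Mrpl54 (-0.22, adjusted p = 0.0749), Mrps18a (-0.06, adjusted p = 0.741) and Mrpl28 (-0.04, adjusted p = 0.715), beside Mrpl16, Mrpl42 and Mrps16. The falls of the leading members from WT were smaller when set against genes of the same chromosome.

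Some changes of single members also lay in the direction of the shift of their chromosome. Other genes of chromosome 1 had a median of 0.19 in U17_KD against WT, and Mrpl44, Mrps9 and Mrpl15, the 3 genes higher in U17_KD than in U17_OE, all belong to it. Chromosome 15 also met the rule, with a median of 0.24 and 42.6% of its other genes higher, and its only tested member, Mrpl13, was not called at 0.20 ± 0.09 (adjusted p = 0.0918). After centring, Mrps9 (0.08, adjusted p = 0.547) and Mrpl15 (0.01, adjusted p = 0.949) did not pass between the clones. In U17_OE against WT other genes of chromosome 3 had a median of -0.20 and those of chromosome 10 of 0.16, and Mrpl9 lies on chromosome 3 and Mrpl54 on chromosome 10. After centring Mrpl9 was at -0.12 (adjusted p = 0.498) and not called, and Mrpl54 was at 0.33 (adjusted p = 0.022) and still called higher. With this centring 5 members were higher in U17_OE than in WT, as were 5.60% of all genes. Mrpl24 went the other way from chromosome 3 in U17_OE, at 0.38 beside -0.28 for its neighbours. In U17_KD Mrpl24 was at 0.32 beside -0.23 for its neighbours, while the other genes of chromosome 3 had a median of 0.01.

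Other genes of mitochondrial translation were counted from lists of known function. Of the mitoribosomal proteins with other names, 2 of 4 tested were lower in U17_KD than in WT, where 20.4% of all genes were. These were Gadd45gip1 (-0.50 ± 0.11, adjusted p = 0.00143), a large-subunit protein also known for binding Gadd45 proteins, and Chchd1 (-0.28 ± 0.10, adjusted p = 0.0247), of the small subunit. In U17_OE, where 6.37% of all genes were lower, 1 of the 4 was lower, Ptcd3 of the small subunit (-0.51 ± 0.12, adjusted p = 0.0107).

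Of the mitochondrial translation factors 3 of 15 were higher (20.0%, as over all genes) and 2 lower (13.3%, against 20.4% of all genes) in U17_KD, with a median log2 fold change of -0.02. Mtif2, the initiation factor, was higher (0.50 ± 0.10, adjusted p = 0.000754), as was Guf1, a ribosome-bound GTPase (0.57 ± 0.15, adjusted p = 0.00465), and Tufm, the elongation factor that brings in aminoacyl-tRNA, was lower (-0.34 ± 0.08, adjusted p = 0.00197). In U17_OE 0 of 15 passed limma's adjusted test, by which 6.48% of all genes were higher and 6.37% lower there. At an unadjusted p under 0.05, 4 were higher and 1 lower, and the share of all genes at that threshold was not counted. Of the factors for assembly and ribosomal RNA modification 3 of 22 were higher (13.6%, against 20.0% of all genes) and 4 lower (18.2%, against 20.4%) in U17_KD, among them Rbfa, a small-subunit assembly factor (0.47 ± 0.08, adjusted p = 8.91e-05), and Mrm3, a ribosomal RNA methyltransferase (-0.46 ± 0.12, adjusted p = 0.00629). In U17_OE 1 was higher (4.55%, against 6.48% of all genes), Mpv17l2 (0.48 ± 0.13, adjusted p = 0.0211).

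Of the mitochondrial tRNA synthetase list 6 of 15 were lower in U17_KD (40.0%, against 20.4% of all genes) and 1 was higher (6.67%, against 20.0%). In U17_OE 3 of the list were lower (20.0%, against 6.37% of all genes). Tars2, which charges threonine tRNA, had a log2 fold change of -0.79 ± 0.12 in U17_KD, with an adjusted p of 3.22e-05, and U17_OE had -0.58 ± 0.12 with an adjusted p of 0.00297. Mars2, for methionine tRNA, was also lower in both clones, at -0.59 ± 0.10 in U17_KD with an adjusted p of 0.000149, and -0.36 ± 0.10 in U17_OE with an adjusted p of 0.0276. The part of their chromosomes in the falls of Tars2 and Mars2 was not tested. Of the genes for mitochondrial DNA transcription and RNA stability 4 of 16 were lower in U17_KD (25%, against 20.4% of all genes). They were Elac2, which cuts tRNA 3′ ends (-0.89 ± 0.12, adjusted p = 8.06e-06), the helicase gene Twnk (-0.60 ± 0.14, adjusted p = 0.0026), Lrpprc, which stabilises mitochondrial messenger RNAs (-0.53 ± 0.14, adjusted p = 0.00547), and Trmt10c, of mitochondrial RNase P (-0.50 ± 0.19, adjusted p = 0.0442). Twnk lies on chromosome 19 and Lrpprc on chromosome 17, whose other tested genes had medians of -0.29 and -0.30. The part of these chromosomes in their falls was not tested. In U17_OE 0 of 16 passed limma's adjusted test, by which 6.48% of all genes were higher and 6.37% lower there. At an unadjusted p under 0.05, 2 were higher and 0 lower, and the share of all genes at that threshold was not counted.

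Among 9 tested nuclear regulators of mitochondrial genes 2 were higher and 2 lower in U17_KD (22.2% each, against 20.0% and 20.4% of all genes). Ppargc1a, which encodes the coactivator PGC-1alpha, had a mean log2 intensity of 9.43 ± 0.06 in U17_KD, 7.84 ± 0.18 in U17_OE and 6.60 ± 0.29 in WT (SD, n = 4). It was higher than WT by 2.83 ± 0.14 in U17_KD (adjusted p = 1.05e-11) and by 1.25 ± 0.14 in U17_OE (adjusted p = 5.86e-06). Its relative Pprc1 was lower in U17_KD (-0.90 ± 0.11, adjusted p = 4.57e-06), as was Myc, a growth regulator (-0.66 ± 0.14, adjusted p = 0.000962). Pprc1 lies on chromosome 19, whose other tested genes had a median of -0.29, and the part of the chromosome in its fall was not tested. Ppargc1b was higher in both clones, at 0.35 ± 0.13 with an adjusted p of 0.0408 for U17_KD and 0.42 ± 0.13 with an adjusted p of 0.0394 for U17_OE. Gabpb2, a subunit of the ETS factor GABP, was lower in U17_OE (-0.51 ± 0.14, adjusted p = 0.0183). The part of its chromosome in that fall was not tested.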

How the data were processed

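RNA of 12 NIH-3T3 cultures was read on Illumina mouse bead arrays. Per the labels' protocols, reverse transcription used an oligo-dT primer and the product carried biotin, and GenomeStudio 2010 is named in the submitters' processing notes. The deposited normalized table holds linear intensity per probe after background subtraction, and 37.7% of its values lie below 0. The sources used here do not give the method that put its arrays on 1 scale. A second deposited table gives, per the file headers, a raw intensity and a detection p-value for each probe. From it only the WT columns were used, and 40 of its 48 columns were not, since their array names occur in no label.

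Background mean (0.492) and SD (15.8) came from the WT detection p-values and served normexp on all 12 arrays, with an offset of 16 before log2. Fold changes are on that scale and understate those of dim probes. A probe was detected from a value of 30.5, and 16706 of 45281 probes, those reaching it on 4 or more arrays, were kept. In the platform annotation 34885 probes have 1 symbol, 18 several and 10378 are not listed. Differences were tested with limma 3.58.1 (R 4.3.3) in 1 model of the 3 groups with 9 residual degrees of freedom and a mean-variance trend, two-sided, with Benjamini-Hochberg adjustment over the kept probes in each comparison, and calls at an adjusted p under 0.05. The fit was tested on simulated data. Percentages over all genes use 1 probe a gene.

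Named are up to 12 members called in each direction and comparison by size, some members whose other probes disagree, and up to 4 called genes of each other list and comparison. Disagreement between probes is not given for every member and comparison. Members and lists were chosen with earlier results of these data known. The replicates are labelled biological, but nothing states how cultures were separated, so p-values measure the spread between these samples. Same-numbered replicates showed no clear joint deviation. Chromosomes were taken from RefSeq. Alternatives covered background, offset, scaling, filter, variance model, weights, probe choice, replicate number and each array left out.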

Additional observations from a re-analysis of the deposited data

Results flagged for a closer look

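In 4 of 69 groups of 4 arrays tested, over 23 named members, 1 array lay far from its group mates, where chance gives about 1 in 20. The gap to the nearest array, as a share of the group's range, was 0.940 for Mrps18a in U17_KD replicate 2, at a log2 intensity of 11.02 against 10.98 on the others. It was 0.879 for Mrpl21 in U17_OE replicate 2, at 12.27 against 11.93 to 11.97. For Mrpl50 it was 0.837 in U17_KD replicate 3, at 10.09 against 10.23 to 10.26, and 0.841 in U17_OE replicate 3, at 10 against 10.55 to 10.66.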

How the results depend on the processing

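The counts of members lower in U17_KD than in WT or U17_OE, and the median log2 fold changes, kept their direction and stayed within 1.5 times or 1 SD of the reported value under all 27 alternatives. The small counts moved. Members higher in U17_KD than in WT numbered 3 without the detection filter or without the mean-variance trend and 8 with array weights, in place of 5. Of all genes 8.60%, 18.8% and 24.5% were higher in these settings, in that order, in place of 20.0%. Members lower in U17_OE than in WT numbered 0 without the filter, without the trend, with only the compared groups or with arrays centred per chromosome, and 2 with array weights, in place of 1, and centring gave 5 higher in place of 3. Of all genes 2.13%, 5.29%, 3.93%, 4.42% and 7.96% were lower in these settings, in that order, in place of 6.37%. With centring 5.60% of all genes were higher, in place of 6.48%. Array weights gave 7 members higher in U17_KD than in U17_OE in place of 3, and 19.3% of all genes in place of 16.5%. The cause was not tested. Leaving out 1 array gave 2 to 6 members higher and 16 to 25 lower in U17_KD than in WT (median -0.12 to -0.06), 2 to 7 higher and 0 to 2 lower in U17_OE than in WT (0.01 to 0.08), and 1 to 6 higher and 13 to 23 lower between the clones (-0.19 to -0.12). Over all genes these settings gave 17.5% to 23.4% higher and 17.8% to 24.3% lower in U17_KD than in WT. For U17_OE against WT they gave 4.46% to 9.94% higher and 4.22% to 9.69% lower. Between the clones they gave 13.9% to 18.7% higher and 13.4% to 19.3% lower. Named members kept their call under every alternative in 12 of 17 cases for U17_KD minus WT, 2 of 4 for U17_OE minus WT and 8 of 15 between the clones, and 0 reversed. Same-numbered replicates correlated at -0.382 to 0.0891 and 0 of 4 numbers matched best with their own, so the numbers do not pair the arrays. With a replicate block 4 members were higher and 17 lower in U17_KD than in WT, 2 and 1 in U17_OE than in WT, and 2 and 16 between the clones. The shares of all genes were then 18.2% and 18.4%, 4.87% and 4.55%, and 14.7% and 14.3%. The 4 arrays a group limit the precision, with a median SE of 0.09 over members and 0.12 over all genes, and dim probes are compressed by the offset.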
